A study of Mus musculus with 4 samples.

Results

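The nuclear genes of mitochondrial ribosomal proteins were followed in the ventricles of newborn mice labelled as Ctnnb1 knockouts and of their controls. The members are all protein-coding genes whose symbol is Mrpl or Mrps followed by a digit, which gave 78 of the 53465 genes in the files, 49 named Mrpl and 29 named Mrps. Poly(A) RNA of ventricles from mice at postnatal day 1 was sequenced in 4 libraries, 2 per group. Knockout-labelled mice were homozygous for a floxed Ctnnb1 allele and carried alphaMHC-Cre, a recombinase under a promoter of cardiomyocytes. Control mice were homozygous for the same floxed allele and carried no Cre, so transgene and deletion are compared together. The product of Ctnnb1, β-catenin, is a junction protein and the co-activator of canonical Wnt signalling. Whole ventricle also holds endothelial cells, fibroblasts and blood cells, in which this promoter is not active. The labels do not tell whether each sample is a separate animal. The knockout-labelled libraries differ in sex pattern, as given below, and so do not come from 1 and the same animal, but for the controls the spread that p-values rest on may be technical.

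Mitochondria carry their own ribosome, which makes the few membrane proteins of the respiratory chain and of ATP synthase that the mitochondrial genome encodes. Its ribosomal RNAs come from that genome, whereas all of its proteins are encoded in the nucleus, made in the cytosol and imported. A core of these proteins descends from bacterial ribosomal proteins, and the rest are found in mitochondria alone. The heart depends on oxidative metabolism, and defects of several of these proteins cause cardiomyopathy in human infants. By their place in the structure, 51 of the 78 members belong to the large subunit and 26 to the small subunit. Mrps30 and Mrps18a are named for the small subunit but sit in the large one. Mrps36 is a subunit of the 2-oxoglutarate dehydrogenase complex and not a ribosomal protein. It stays among the members because the rule goes by symbol.

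Values of a group are given for library 1 and then for library 2. Gene counts came to 45651797 and 34027143 in the knockout-labelled libraries, against 43288936 and 44624578 in the controls. Levels are given as counts per megaread of gene counts (CPM) scaled by TMM, a factor that evens out composition between libraries and lay between 0.869 and 1.10. Ctnnb1 itself had 527 and 460 CPM in the knockout-labelled libraries, against 409 and 434 CPM in the controls. The targeted gene was thus no lower with Cre than without (log2 fold change 0.23 ± 0.20, where ± after a fold change is its SE, with an adjusted p of 0.532 from the quasi-likelihood test of edgeR), and directions below are those of the libraries as labelled. Reads from the whole gene and from all cells were counted, and which exons were deleted is not stated in the labels. Knockout-labelled 2 alone had a female pattern, with Xist at 602 CPM and a count of 0 for the Y-linked Kdm5d, which allows up to 0.0882 CPM before scaling. T-cell transcripts were abundant in control 1 alone, with 4 markers summing to 145 CPM against at most 3.19 CPM in any other library. The mitochondrial genome took 10.2% and 14.4% of gene counts in the knockout-labelled libraries, against 5.25% and 7.65% in the controls. Reads placed in more than 1 site made up 23.9% and 29.7% of counted reads in the knockout-labelled libraries, against 19.4% and 21.0% in the controls. The 95% Wilson intervals of these shares reach at most 0.0122 percentage points to either side and cover counting error only.

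Of the 78 members, 77 passed the filter on low counts. Mrpl53, a protein specific to the mitochondrial large subunit, had 2 and 0 counts in knockout-labelled libraries 1 and 2 and also 2 and 0 in controls 1 and 2. A gene named Gm42688 overlaps it on the same strand and holds its coding sequence with 100% identity, so its reads could not be assigned to it alone. A count of 0 allows up to 0.0882 CPM in knockout-labelled 2 and up to 0.0672 CPM in control 2.

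Most members had higher relative levels in the knockout-labelled libraries by a modest amount, and 0 passed the main test. The median log2 fold change of the 77 members was 0.45, against -0.02 for all 18157 genes tested and -0.03 for the 14565 protein-coding genes tested. It was above 0 for 75 members on TMM-scaled counts, for 57 with scaling by library totals alone, where the median of all genes was -0.26, and for 35 on the TPM scale, where that of all genes was -0.37. Over all genes edgeR called 2 higher (0.011%) and 0 lower with the adjusted p below 0.05, and 0 members in either direction, the smallest adjusted p of a member being 0.0925. At an unadjusted p under 0.05 edgeR counted 36 members higher and 0 lower, against 11.8% of all genes higher and 11.2% lower. Both knockout-labelled libraries exceeded both controls in 56 members and were below both in 1, which is Mrpl24, against 26.5% and 29.7% of all genes. DESeq2 called 14 members higher and 0 lower on the same threshold, against 6.19% of the 15837 genes to which it gave an adjusted p called higher and 4.91% called lower.

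**Figure D1:**
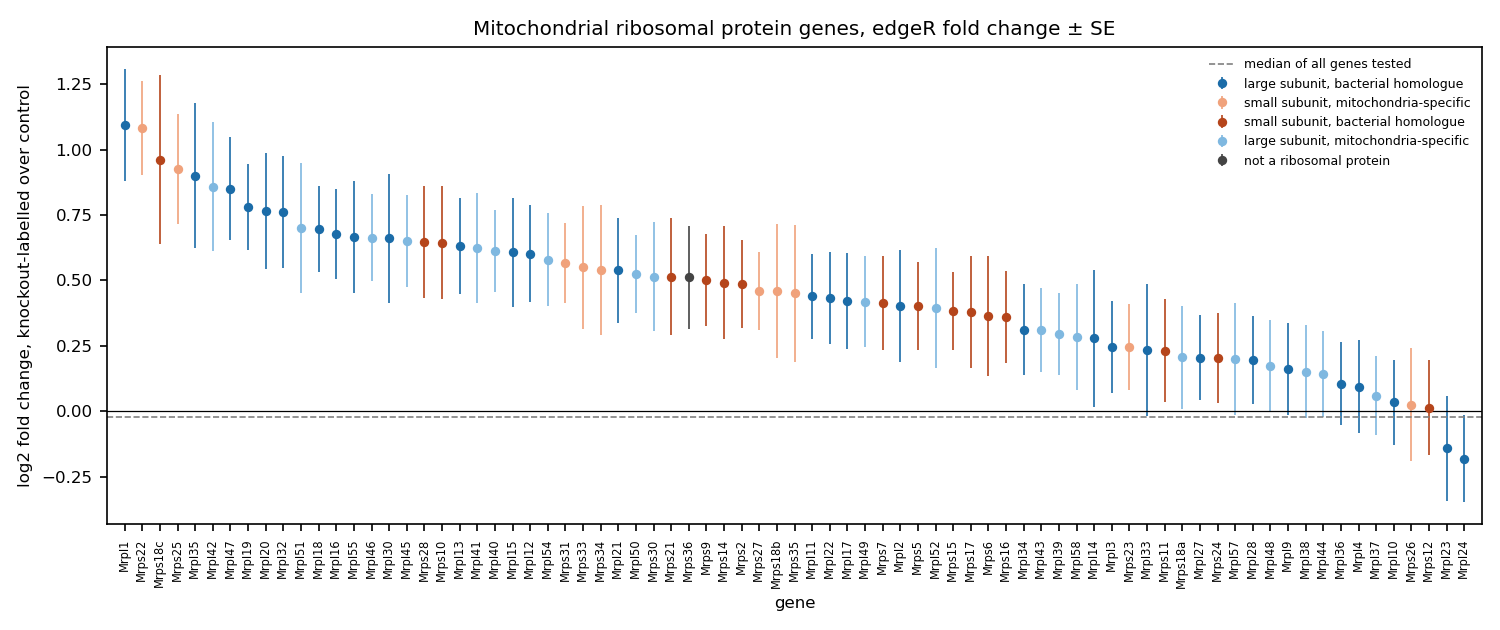
Log2 fold change of knockout-labelled over control libraries (y axis, edgeR on TMM-scaled counts) for each of the 77 members tested (x axis, in order of fold change), with bars for the SE and colours for subunit and origin. The values run from 1.09 for Mrpl1 to -0.18 for Mrpl24, 75 lie above 0 (35 on the TPM scale), and the dashed line marks the median of all genes tested at -0.02.

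Leaving out single libraries moved these counts, and without either control DESeq2 called 0 members. Without knockout-labelled 2, 23 members had an unadjusted p under 0.05 in the higher direction (11.3% of all genes), and without knockout-labelled 1 the number was 56 (16.1% of all genes). Without control 1 it was 7 (4.10% of all genes) and without control 2 it was 5 (5.12% of all genes). DESeq2 called 39 members higher without knockout-labelled 1 (9.41% of all genes), 3 without knockout-labelled 2 (4.16%), 0 without control 1 (0.571%) and 0 without control 2 (1.02%). With 1 library left in a group, that library is assumed to vary like those of the other group. Limma-voom on the same counts called 0 members in either direction. It had 32 members at an unadjusted p under 0.05 in the higher direction, against 11.5% of all genes. The members' median lay above that of all genes under each way of processing in the plot of medians, also where it was below 0 itself, on the TPM scale.

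**Figure D2:**
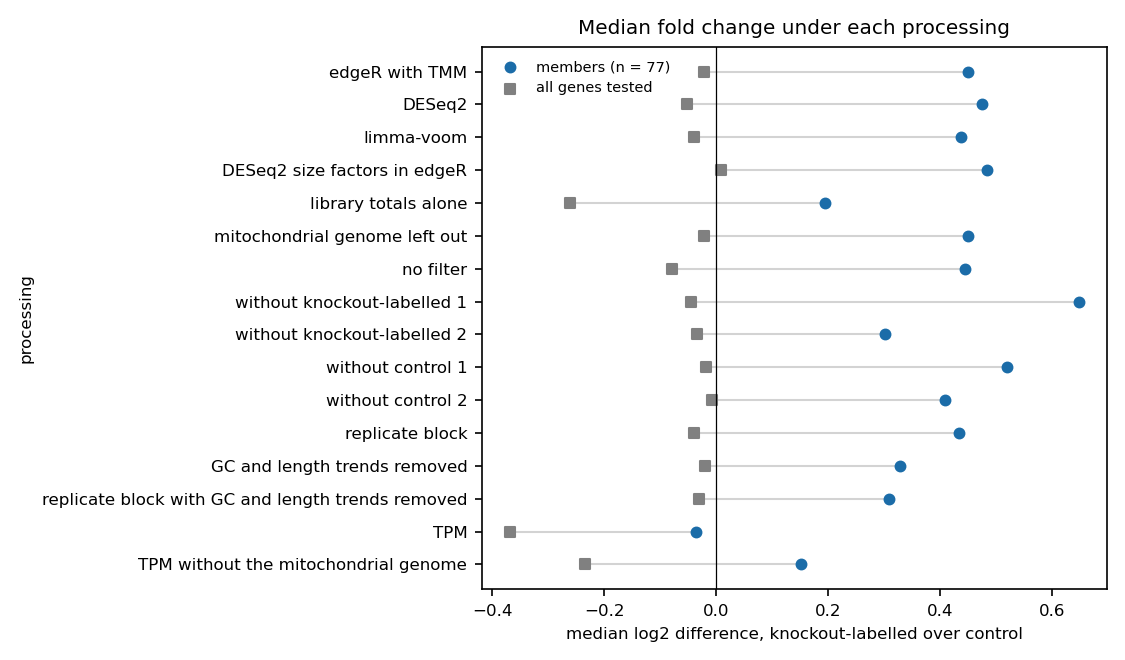
Median log2 difference of knockout-labelled over control libraries (x axis) under each way of processing (y axis) for the 77 members (circles) and for all genes tested (squares). The members' median runs from -0.04 on the TPM scale to 0.65 without knockout-labelled 1 and lies above that of all genes in every row shown.

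The members varied together from library to library. Their CPM summed to 4331 and 5478 in the knockout-labelled libraries, against 3776 and 3389 in the controls. Both knockout-labelled sums were above both control sums, and knockout-labelled 2 was the highest. As a share of all gene counts the members took 0.421% (95% Wilson interval 0.419% to 0.422%) and 0.476% (0.474% to 0.478%) in the knockout-labelled libraries, against 0.407% (0.405% to 0.409%) and 0.372% (0.370% to 0.373%) in the controls. These intervals cover counting error only, not the spread between libraries. The unscaled shares of the groups did not overlap. That of knockout-labelled 1 lay nearer to that of control 1 than to that of knockout-labelled 2. In bulk tissue more cells of a type and more RNA per cell cannot be told apart. As a sum of TPM, which divides by length and by the total of all genes, the members took 5820 and 5630 in the knockout-labelled libraries, against 6245 and 5548 in the controls, and there the groups overlapped. On the log2(CPM + 1) scale the median member lay 0.29 and 0.58 above the control mean in the knockout-labelled libraries, against 0.07 above and 0.07 below it in the controls.

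The libraries within a group were also ordered alike by most members. Knockout-labelled 2 was above knockout-labelled 1 in 73 of 77 members, against 50.2% of all genes, with a median difference of 0.29 on the log2 scale. Control 1 was above control 2 in 69 members, against 50.4% of all genes, with a median difference of 0.14. The order knockout-labelled 2, knockout-labelled 1, control 1, control 2 from high to low held in 46 members, against 8.20% of all genes. Within-group differences of the whole list were therefore of the same kind as the difference between groups, and the list does not count as 77 independent observations.

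**Figure D3:**
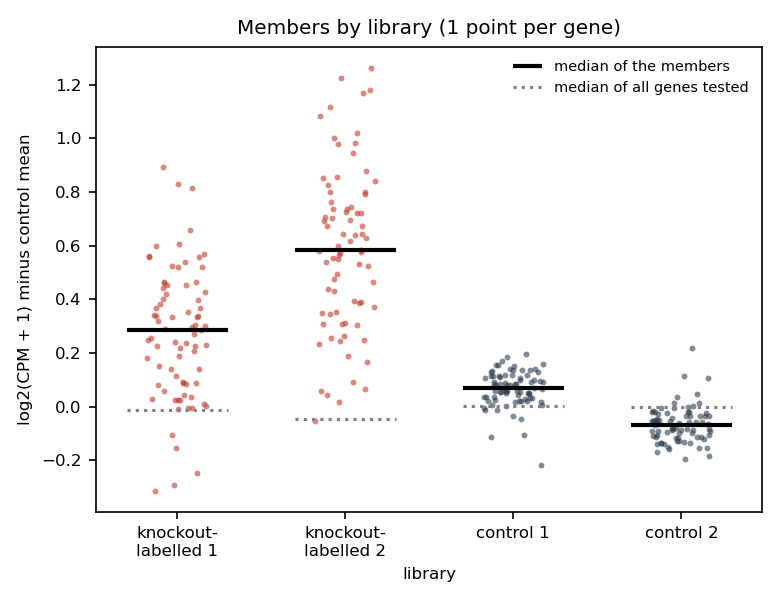
Difference of log2(CPM + 1) from the control mean (y axis) in each of the 4 libraries (x axis) for the 77 members tested, 1 point per gene, on TMM-scaled counts. The members' medians (solid bars) are 0.29 and 0.58 in knockout-labelled libraries 1 and 2 and 0.07 and -0.07 in controls 1 and 2, while the medians of all genes tested (dotted bars) lie within 0.05 of 0.

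Markers of cell types and of cell division differed between the same libraries. The 8 cardiomyocyte markers summed to 71270 and 80947 CPM in the knockout-labelled libraries, against 59067 and 53393 CPM in the controls. The sums have the library order of the members, while single markers were mixed, with both knockout-labelled libraries above both controls in 5 of 8 and log2 fold changes from -1.16 for Myh7 to 1.12 for Actc1. The 5 markers of dividing cells summed to 356 and 464 CPM in the knockout-labelled libraries, against 137 and 201 CPM in the controls. For 5 erythroid markers the sums were 762 and 654 CPM in the knockout-labelled libraries, against 1085 and 1118 CPM in the controls. The labelled tissue was thus visible in every library, each dominated by cardiomyocyte transcripts over those of blood. Sums of the endothelial list ranged from 1087 to 1138 CPM in the knockout-labelled libraries, against 1193 to 1256 CPM in the controls. Those of the fibroblast list ranged from 2555 to 3245 CPM in the knockout-labelled libraries, against 2273 to 3391 CPM in the controls. Those of the macrophage list ranged from 77.0 to 92.7 CPM in the knockout-labelled libraries, against 90.8 to 111 CPM in the controls. Among its genes Cd68 (log2 fold change -1.43 ± 0.27), Csf1r (-0.71 ± 0.17) and Adgre1 (-0.73 ± 0.46) had both knockout-labelled libraries below both controls. Mrc1 (0.96 ± 0.24) had both above, and for C1qa (-0.53 ± 0.28) the groups overlapped. The smooth muscle list summed to 1678 and 1432 CPM in the knockout-labelled libraries, against 514 and 710 CPM in the controls, but Acta2, also made by fetal cardiomyocytes, was the 1 of its 5 genes with a log2 fold change above 0, and their median was -0.34. In it Pdgfrb (-0.57 ± 0.16) and Myh11 (-0.65 ± 0.19) had both knockout-labelled libraries below both controls. The atrial list summed to 1433 and 1615 CPM in the knockout-labelled libraries, against 1570 and 2649 CPM in the controls. In it Sln (-1.51 ± 0.31) and Myl7 (-0.92 ± 0.34) had both knockout-labelled libraries below both controls. For Myl4 (-0.45 ± 0.32) and Nppa (0.22 ± 0.39) the groups overlapped. Of the T-cell markers only Cd3e was at 0, in knockout-labelled 1. The part of cell makeup, cell division, sex and the mitochondrial share in the members' difference was not tested.

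Members were also described by subunit and by evolutionary class. The 50 tested large-subunit members had a median log2 fold change of 0.43 and the 26 small-subunit members one of 0.46. Both knockout-labelled libraries exceeded both controls in 34 of the large-subunit and 21 of the small-subunit members, against 26.5% of all genes. The 46 members with a bacterial homologue had a median of 0.43, and the 30 tested members specific to mitochondria one of 0.46. Among the 4 classes that result, the medians ran from 0.41 in bacterial-type small-subunit and in mitochondria-specific large-subunit members to 0.50 in mitochondria-specific small-subunit members. The classes were not tested against each other.

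The largest fold changes belonged to Mrpl1 and Mrps22. Mrpl1 (ENSMUSG00000029486), whose bacterial homologue forms the mobile stalk beside the exit site of tRNA, spans bases 96209493 to 96266727 of chromosome 5 (GRCm38, forward strand). It had 35.6 and 48.4 CPM in the knockout-labelled libraries, against 18.1 and 21.3 CPM in the controls. The groups did not overlap, with means of 42.0 ± 9.08 CPM in the knockout-labelled libraries and 19.7 ± 2.29 CPM in the controls (SD, n = 2 each). Its log2 fold change was 1.09 ± 0.22 (adjusted p = 0.0925 with edgeR, 0.00145 with DESeq2). Mrps22 (ENSMUSG00000032459), a mitochondria-specific protein of the small subunit in which variants cause cardiomyopathy in human, spans bases 98588730 to 98601660 of chromosome 9 (reverse strand). It had 36.2 and 44.4 CPM in the knockout-labelled libraries, against 19.2 and 18.8 CPM in the controls. All of the knockout-labelled values were well above those of the controls, which were nearly equal. The log2 fold change was 1.08 ± 0.18 (adjusted p = 0.0925 with edgeR, 0.000247 with DESeq2). Mrpl1 and Mrps22 were also the 2 members that edgeR called with no filter on low counts, at adjusted p-values of 0.0393 and 0.0325. That setting called 313 genes higher and 241 lower out of 31993, against 2 and 0 in the main fit.

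A further group followed at log2 fold changes between 0.70 and 0.92. Mrps25, a small-subunit protein specific to mitochondria, had 27.3 and 37.0 CPM in the knockout-labelled libraries, against 17.4 and 16.5 CPM in the controls. The groups were apart, and the log2 fold change was 0.92 ± 0.21 (adjusted p = 0.0983 with edgeR, 0.00741 with DESeq2). Mrpl47, the homologue of bacterial L29 at the exit of the peptide tunnel, had 40.6 and 54.3 CPM in the knockout-labelled libraries, against 25.5 and 27.2 CPM in the controls. Its groups were also apart (0.85 ± 0.20; adjusted p = 0.0997 with edgeR, 0.0108 with DESeq2). Mrpl19, the homologue of bacterial L19 at the interface of the subunits, was the one of these in which knockout-labelled 1 was the higher library, at 45.4 CPM with 42.1 CPM in knockout-labelled 2, against 26.98 and 23.9 CPM in controls 1 and 2. The log2 fold change of Mrpl19 was 0.78 ± 0.16 (adjusted p = 0.0925 with edgeR, 0.00592 with DESeq2). Mrpl18, the homologue of the 5S rRNA-binding protein L18, had 84.9 and 100 CPM in the knockout-labelled libraries, against 58.3 and 56.1 CPM in the controls (log2 fold change 0.70 ± 0.16).

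Mrpl42, Mrpl35 and Mrps18c had large fold changes with wide spreads. Mrpl42, a mitochondria-specific protein of the large subunit, had 246 and 367 CPM in the knockout-labelled libraries, against 180 and 158 CPM in the controls, the highest CPM of any member. Knockout-labelled 2 was far above the other 3 libraries (log2 fold change 0.86 ± 0.25; adjusted p = 0.132 with edgeR, 0.0165 with DESeq2). For Mrpl35, the homologue of bacterial L35, the values were 42.1 and 74.0 CPM in the knockout-labelled libraries, against 31.2 and 30.9 CPM in the controls. Its SE was 0.28 on a log2 fold change of 0.90. Mrps18c is the one of 3 paralogs classed here as the homologue of bacterial S18, while its paralogs are counted as mitochondria-specific. It had 11.5 and 18.2 CPM in the knockout-labelled libraries, against 6.33 and 8.91 CPM in the controls. The groups were apart by less than the gap between the knockout-labelled libraries (0.96 ± 0.32; adjusted p = 0.161 with edgeR, 0.0525 with DESeq2).

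**Figure D4:**
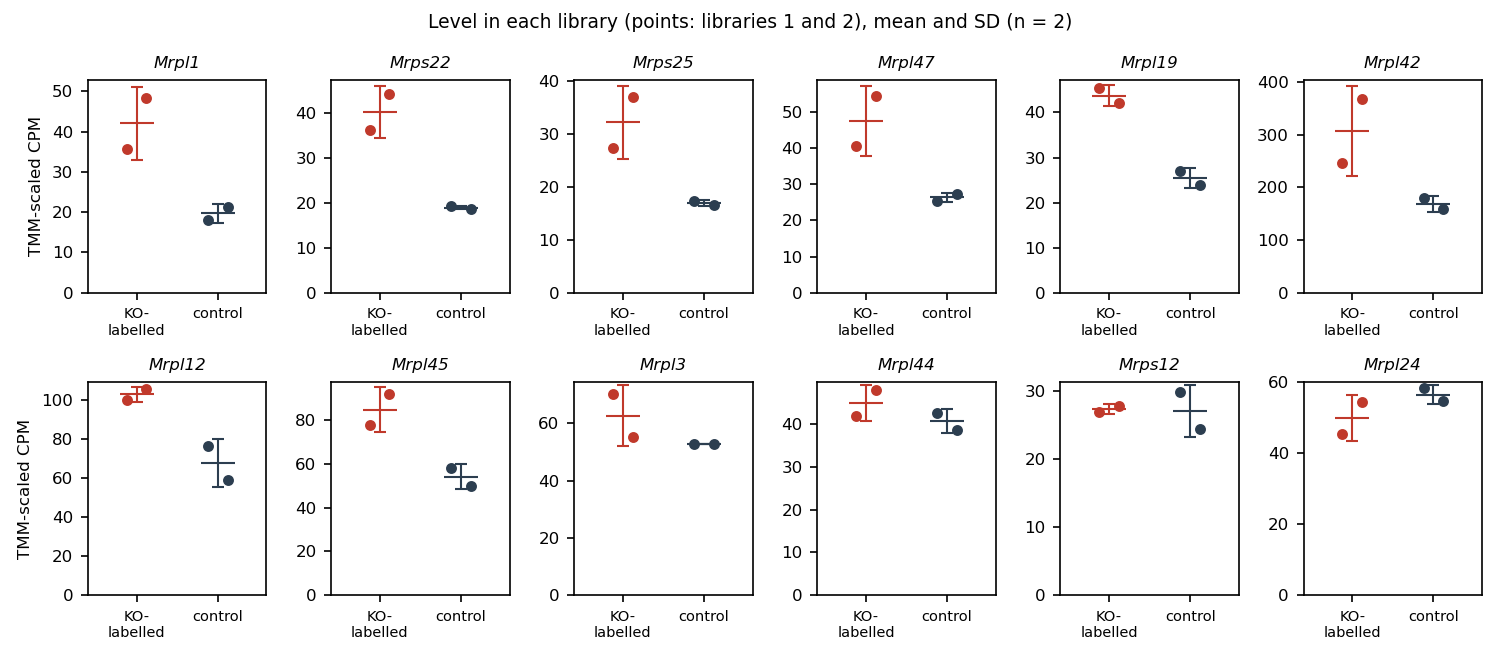
TMM-scaled CPM (y axis, from 0) of 12 members in knockout-labelled (left, red) and control libraries (right, dark), with library 1 left and library 2 right within a group, the mean as a dash and the SD as a bar (n = 2). In Mrpl1, Mrps22, Mrps25, Mrpl47, Mrpl19, Mrpl42, Mrpl12, Mrpl45 and Mrpl3 both knockout-labelled points lie above both control points, in Mrpl44 and Mrps12 the groups overlap, and in Mrpl24 both lie below.

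The other paralogs of Mrps18c differed from it in level and in fold change. Mrps18b had 13.9 and 20.7 CPM in the knockout-labelled libraries, against 12.8 and 12.4 CPM in the controls (log2 fold change 0.46 ± 0.26). Mrps18a, the paralog in the large subunit, had 52.6 and 67.0 CPM in the knockout-labelled libraries, against 57.4 and 46.2 CPM in the controls (0.21 ± 0.20). The groups overlapped for Mrps18a alone of the 3, and with library totals its value was -0.04. Per kilobase of exon the mean levels were 10.4 CPM for Mrps18c, 7.15 for Mrps18b and 15.1 for Mrps18a. The differences between the paralogs' fold changes were not tested, and a pseudogene with 99.8% identity to Mrps18b can take part of its reads.

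The stalk of the large subunit, which recruits translation factors, is represented by 3 members, whose fold changes were not tested against each other. Mrpl12, the homologue of the L7/L12 stalk protein, had 100 and 105 CPM in the knockout-labelled libraries, against 76.5 and 59.1 CPM in the controls. The groups were apart (log2 fold change 0.60 ± 0.19; adjusted p = 0.143 with edgeR, 0.0608 with DESeq2). Mrpl11, at the stalk base, had 55.3 and 62.9 CPM in the knockout-labelled libraries, against 46.1 and 41.0 CPM in the controls (0.44 ± 0.16). Mrpl10, which anchors the Mrpl12 copies, had 44.9 and 46.7 CPM in the knockout-labelled libraries, against 48.5 and 41.0 CPM in the controls. Both knockout-labelled values lay between those of the controls, and the log2 fold change of 0.03 ± 0.16 was -0.21 with library totals and -0.07 with the trend on GC content and length removed.

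Of the decoding side of the small subunit, Mrps12 and Mrps5 were followed. Mrps12, the homologue of the bacterial S12 that monitors codon pairing, had 26.8 and 27.8 CPM in the knockout-labelled libraries, against 29.7 and 24.3 CPM in the controls (log2 fold change 0.01 ± 0.18). The groups overlapped, and the sign turned with library totals (-0.23). Mrps5, the homologue of bacterial S5 near the mRNA entry, had 78.7 and 86.2 CPM in the knockout-labelled libraries, against 68.0 and 56.8 CPM in the controls (0.40 ± 0.17), with the groups apart.

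Apart from Mrps22, 3 members in which variants cause cardiomyopathy in human had smaller values. Mrpl3, the homologue of bacterial L3 near the peptidyl transferase centre, had 70.2 and 55.2 CPM in the knockout-labelled libraries, against 52.9 and 52.9 CPM in the controls (log2 fold change 0.24 ± 0.18). Knockout-labelled 1 was the higher library here, unlike in most members. Mrpl44, a mitochondria-specific protein of the large subunit, had 42.0 and 48.1 CPM in the knockout-labelled libraries, against 42.8 and 38.8 CPM in the controls. The groups overlapped, and the log2 fold change of 0.14 ± 0.16 was -0.10 with library totals. Mrps14, the homologue of bacterial S14, had 29.0 and 41.4 CPM in the knockout-labelled libraries, against 25.4 and 24.7 CPM in the controls (0.49 ± 0.22).

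Next come members with a function at the membrane or beyond the ribosome. Mrpl45, which ties the ribosome to the inner membrane, had 77.8 and 92.2 CPM in the knockout-labelled libraries, against 58.2 and 50.1 CPM in the controls. With the groups apart, its log2 fold change was 0.65 ± 0.17 (adjusted p = 0.122 with edgeR, 0.0338 with DESeq2). Mrps30 and Mrpl41, both of the large subunit and both linked to cell death in cultured cells, had log2 fold changes of 0.51 ± 0.21 and 0.62 ± 0.21. Mrpl58, a peptidyl-tRNA hydrolase related to release factors that is built into the large subunit, had one of 0.28 ± 0.20, and its groups overlapped. Mrps36, the dehydrogenase subunit, had 40.1 and 53.4 CPM in the knockout-labelled libraries, against 34.8 and 30.8 CPM in the controls (0.51 ± 0.20), close to the members' median, and 4 pseudogenes elsewhere match its reading frame with at least 95% identity.

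At the low end stood Mrpl24, Mrpl23 and Mrps26. Mrpl24 (ENSMUSG00000019710), the homologue of a protein that starts assembly of the bacterial large subunit, spans bases 87919506 to 87923672 of chromosome 3 (forward strand). It had 45.3 and 54.4 CPM in the knockout-labelled libraries, against 58.4 and 54.6 CPM in the controls. Knockout-labelled 2 and control 2 were almost equal, and the log2 fold change was -0.18 ± 0.17 (adjusted p = 0.552 with edgeR). Mrpl23, the homologue of the bacterial tunnel-exit protein L23, had 29.3 and 36.6 CPM in the knockout-labelled libraries, against 40.4 and 32.3 CPM in the controls (-0.14 ± 0.20). The groups overlapped, its sign turned without knockout-labelled 1 (0.06), without control 1 (0.03) and with the GC and length trend removed (0.11), and a pseudogene is identical to its coding sequence over 424 bases. Mrps26, specific to mitochondria, had 45.5 and 65.2 CPM in the knockout-labelled libraries, against 50.2 and 58.5 CPM in the controls (0.03 ± 0.22), with both controls between the knockout-labelled values.

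Compared per kilobase of exon, mean levels over the 4 libraries spanned a 30.1-fold range, from 3.74 to 112 CPM per kilobase, with a median of 20.8 against 4.31 for the protein-coding genes tested. The highest were Mrpl34 at 112 and Mrps21 at 109, both with bacterial homologues, then the mitochondria-specific Mrps23 at 82.7, Mrpl54 at 79.5 and Mrpl42 at 64.6 CPM per kilobase. At the lower end were Mrps25 at 3.74, Mrps10, the homologue of bacterial S10, at 4.79 and Mrpl17, the homologue of bacterial L17, at 4.90 CPM per kilobase. The length is that of all annotated exons of a gene, so long minor isoforms lower the value. The 5 highest had log2 fold changes of 0.31 ± 0.17, 0.51 ± 0.22, 0.24 ± 0.16, 0.58 ± 0.18 and 0.86 ± 0.25, and those of Mrps10 and Mrpl17 were 0.64 ± 0.21 and 0.42 ± 0.18. Removing the GC and length trend turned Mrpl34 to -0.08.

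Members were shorter than the protein-coding genes tested, with a median exon length of 2533 bases against 4434, and had a like GC content of 49.7% against 49.9%. Over the 77 members, which share the same 4 libraries, the log2 fold change ran against GC content (Pearson's r = -0.39, Spearman's rho = -0.39) and had little relation to the log of exon length (0.11 and 0.09) or the log of the level per length (-0.15 and -0.12). With per-library trends on GC content and length removed, the members' median was 0.33 and 68 of 77 lay above 0.

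By the RefSeq promoter windows of build GRCm38.p6, which hold 250 bases before and 50 after the start of transcription, 69 members had 75 windows, and 3 of 5 motifs searched were more frequent in them than in other genes, which was not tested. The promoters are shown because factors that bind such motifs are known to control mitochondrial genes. Each motif was searched on both strands. CCGGAAG, the core bound by ETS factors such as GABP, was in the windows of 26 of the 69 members (37.7%), against 18.2% of the protein-coding genes tested. AAGATGGC, the core of YY1, was in 12 (17.4%), against 4.77%, and GCATGCGC, part of the palindrome of NRF1, in 8 (11.6%), against 5.55%. The E-box CACGTG, bound by Myc, was in 5 (7.25%), against 11.2%, and TCAAGGTCA, the ERR element, in 0, against 0.317%. In the 4 windows below, each printed 5′ to 3′ on the strand of the gene, capitals mark these motifs. Mrps22 (chr9:98601630-98601929, reverse strand) and Mrpl1 (chr5:96209865-96210164, forward strand) had the largest fold changes, and Mrps12 (chr7:28741772-28742071, reverse strand) and Mrpl24 (chr3:87919294-87919593, forward strand) were near 0 or below.
Mrps22: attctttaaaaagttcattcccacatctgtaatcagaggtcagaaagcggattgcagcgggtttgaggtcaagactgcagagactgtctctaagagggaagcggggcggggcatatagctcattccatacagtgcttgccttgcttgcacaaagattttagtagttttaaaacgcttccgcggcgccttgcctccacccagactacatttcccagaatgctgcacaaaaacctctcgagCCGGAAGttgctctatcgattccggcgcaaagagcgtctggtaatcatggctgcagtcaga
Mrps12: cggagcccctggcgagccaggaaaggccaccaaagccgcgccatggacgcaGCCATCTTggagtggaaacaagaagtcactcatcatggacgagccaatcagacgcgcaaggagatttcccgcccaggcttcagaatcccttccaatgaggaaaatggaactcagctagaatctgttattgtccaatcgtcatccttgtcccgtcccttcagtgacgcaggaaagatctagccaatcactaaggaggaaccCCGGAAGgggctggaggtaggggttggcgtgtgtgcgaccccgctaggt
Mrpl1: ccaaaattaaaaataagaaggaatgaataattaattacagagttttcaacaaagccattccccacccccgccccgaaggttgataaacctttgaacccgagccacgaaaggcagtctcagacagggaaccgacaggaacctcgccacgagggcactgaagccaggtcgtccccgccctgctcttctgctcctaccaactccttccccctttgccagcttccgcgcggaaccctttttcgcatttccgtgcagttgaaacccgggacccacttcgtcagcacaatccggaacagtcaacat
Mrpl24: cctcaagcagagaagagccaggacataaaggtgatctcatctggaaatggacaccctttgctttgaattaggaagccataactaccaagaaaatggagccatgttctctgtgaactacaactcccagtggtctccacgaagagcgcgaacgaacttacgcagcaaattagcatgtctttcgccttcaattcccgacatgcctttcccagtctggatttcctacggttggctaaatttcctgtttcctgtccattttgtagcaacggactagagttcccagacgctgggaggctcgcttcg

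These windows show the same motif at both ends of the range of fold changes. Mrps22 and Mrps12 each hold CCGGAAG close to the start, Mrps12 also holds GCCATCTT, which is the YY1 core read on the other strand, and Mrpl1 and Mrpl24 hold none of the motifs searched. The RefSeq start of Mrpl1 lies inside the longer gene of the annotation used for counting. Over all members with a window, the 38 that hold at least 1 of the NRF1, GABP and YY1 motifs had a median log2 fold change of 0.31. The untested Mrpl53 is counted in the 38 but not in their median. The 31 that hold none had a median of 0.51. A match is a description of letters and not of binding.

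Many members share their start region with a neighbour. A gene on the opposite strand starts within 1000 bases of 33 of the 78 members (42.3%), against 14.7% of the protein-coding genes tested. Mrpl46 and Mrps11 are each other's neighbour, with log2 fold changes of 0.66 ± 0.17 and 0.23 ± 0.20. Of the other 31 pairs, 29 had both genes tested, and in these the members had a median log2 fold change of 0.46 and their neighbours one of -0.06. The member was above its neighbour in 24 of the 29 pairs. Of the 29 neighbours, 12 were above 0. Both knockout-labelled libraries were higher than both controls in 10 and lower in 10, against 26.5% and 29.7% of all genes. With edgeR, 4 had an unadjusted p under 0.05 in each direction, against 11.8% of all genes higher and 11.2% lower.

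Single pairs show how far neighbours went apart or together. Mrpl41, the large-subunit protein named above, had 54.2 and 77.0 CPM in the knockout-labelled libraries, against 44.2 and 40.9 CPM in the controls. Its neighbour Pnpla7, a lysophospholipase, had 26.9 and 25.4 CPM in the knockout-labelled libraries, against 53.4 and 51.5 CPM in the controls, with a log2 fold change of -1.001 ± 0.15 (adjusted p = 0.0925 with edgeR). Member and neighbour thus lay on opposite sides of 0, each with its groups apart. By contrast Mrpl18 (0.70 ± 0.16) and Tcp1 (0.68 ± 0.18), a subunit of the cytosolic chaperonin, had nearly equal values, as did Mrps12 (0.01 ± 0.18) and Sars2 (-0.01 ± 0.25), the mitochondrial seryl-tRNA synthetase. Mrpl47 (0.85 ± 0.20) stood beside Ndufb5 (0.49 ± 0.26), a subunit of respiratory complex I. Over the 29 pairs, which share the 4 libraries, Pearson's r of the 2 fold changes was -0.11 and Spearman's rho -0.05.

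Overlaps and copies limit single members more than the list. A gene on the opposite strand overlaps 28 members, and since the sources used here do not say whether counting used strand, reads of the partners cannot be told apart there. In addition, 17 members, some of them among these, have a pseudogene elsewhere that matches their longest reading frame with at least 95% identity over at least 100 bases. The 34 members with neither an overlapping gene nor such a copy had a median log2 fold change of 0.47.

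Other parts of the mitochondrial translation system were uneven. Over all genes, 26.5% had both knockout-labelled libraries above both controls and 29.7% had both below, which the counts of each list stand against. The 5 mitoribosomal proteins under other names had a median log2 fold change of 0.35, with both knockout-labelled libraries above both controls in 3 and below in 0. Ptcd3, a pentatricopeptide protein of the small subunit, had 125 and 112 CPM in the knockout-labelled libraries, against 68.5 and 71.8 CPM in the controls (0.76 ± 0.16; adjusted p = 0.0925 with edgeR). Chchd1, another small-subunit protein, had a log2 fold change of 0.84 ± 0.18 (adjusted p = 0.0953 with edgeR). For the 12 translation factors the median was 0.29, with 8 above and 1 below, and it was led by the elongation factor Gfm1 (0.72 ± 0.18) and the initiation factor Mtif2 (0.58 ± 0.15). The 27 factors of ribosome assembly and rRNA modification had a median of 0.07, with 10 above and 4 below. Among them Fastkd2, which binds the large rRNA, was at 0.65 ± 0.17, and Mettl17, needed for assembly of the small subunit, at -0.57 ± 0.15 on the log2 scale. Mettl17 had 28.0 and 27.8 CPM in the knockout-labelled libraries, against 42.5 and 40.2 CPM in the controls (adjusted p = 0.125 with edgeR). The 5 tested genes of mitochondrial mRNA stability had a median of 0.57, and all 5 had both knockout-labelled libraries above both controls. Of these Pnpt1, the mitochondrial polynucleotide phosphorylase, was at 0.86 ± 0.17 and Lrpprc, which keeps mitochondrial mRNAs polyadenylated, at 0.76 ± 0.17. The sixth, Slirp, the partner of Lrpprc, had 3 and 2 counts in the knockout-labelled libraries, against 0 and 1 in the controls, and was not tested.

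**Figure D5:**
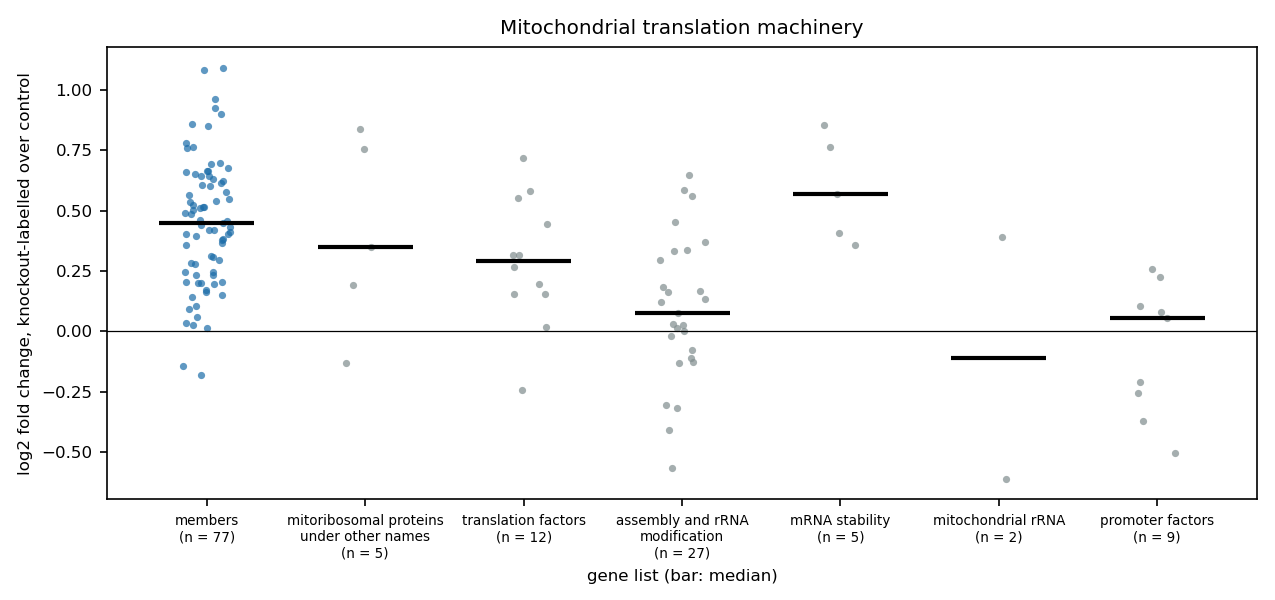
Log2 fold change of knockout-labelled over control libraries (y axis, TMM-scaled counts) for single genes (points) of the members and of 6 lists of the mitochondrial translation system (x axis), with the median of each list as a bar. Medians run from 0.57 for mRNA stability and 0.45 for the members (-0.04 on the TPM scale) to 0.07 for assembly and rRNA modification, 0.06 for promoter factors and -0.11 for the 2 rRNAs.

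The 2 rRNAs around which the members assemble had no common direction. The small rRNA mt-Rnr1 had 436 and 748 CPM in the knockout-labelled libraries, against 836 and 973 CPM in the controls (log2 fold change -0.61 ± 0.31). The large rRNA mt-Rnr2 had 2512 and 1554 CPM in the knockout-labelled libraries, against 1302 and 1796 CPM in the controls (0.39 ± 0.34). The libraries were selected for poly(A), so these levels follow tail length as well as abundance. The 13 mitochondrial mRNAs, translated by these ribosomes, all had both knockout-labelled libraries above both controls, against 26.5% of all genes. Their median log2 fold change was 1.85, and 4 of them had at most 3 counts in at least 1 control. The other 9, which include mt-Co3 and mt-Co2, had a median of 1.19. Reads placed in more than 1 site were left out of the counts, and their number per gene is not known. The 2 smallest p-values were those of mt-Co3 and mt-Co2, subunits of complex IV. Both had few uniquely placed reads, beside counts of 959369 to 1880127 for mt-Co1. Of these mt-Co3 had counts of 304 and 317 in the knockout-labelled libraries, against 7 and 12 in the controls (log2 fold change 5.45 ± 0.47; adjusted p = 0.0925 with edgeR). For mt-Co2 the counts were 327 and 350 in the knockout-labelled libraries, against 10 and 21 in the controls (4.88 ± 0.50; adjusted p = 0.0925 with edgeR). The most abundant mRNA, mt-Co1, a core subunit of respiratory complex IV, had 39465 and 63587 CPM in the knockout-labelled libraries, against 20573 and 28845 CPM in the controls (1.06 ± 0.50).

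Transcripts of the promoter factors, a list that holds co-activators beside the factors named for the motifs, were not higher as a list. The 9 promoter factors had a median log2 fold change of 0.06. Both knockout-labelled libraries were above both controls in 1, Ppargc1a (0.26 ± 0.17), and below both in 4. Over all genes these shares were 26.5% and 29.7%. Nrf1 had 28.7 and 22.9 CPM in the knockout-labelled libraries, against 34.5 and 32.3 CPM in the controls (-0.37 ± 0.19). Pprc1, a co-activator of Nrf1, had 23.5 and 26.9 CPM in the knockout-labelled libraries, against 34.5 and 37.2 CPM in the controls (-0.51 ± 0.17; adjusted p = 0.159 with edgeR). In both, the knockout-labelled libraries lay below the controls. Yy1 and Gabpa had log2 fold changes of -0.25 ± 0.16 and 0.06 ± 0.23.

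Cytosolic ribosomal proteins, the counterparts outside mitochondria, are given for comparison. The 78 genes had a median log2 fold change of 0.28, with 73 above 0. Both knockout-labelled libraries exceeded both controls in 9 and were below both in 1, against 26.5% and 29.7% of all genes. Their CPM summed to 29562 and 43931 in the knockout-labelled libraries, against 33767 and 27348 in the controls. As in the mitochondrial members, knockout-labelled 2 was the highest and control 2 the lowest library, but here knockout-labelled 1 was below control 1, so the groups overlapped. EdgeR counted 0 of the 78 at an adjusted p under 0.05, against 0.011% of all genes higher. At an unadjusted p under 0.05 it counted 0, against 11.8% of all genes higher and 11.2% lower. DESeq2 called 0, against 6.19% higher and 4.91% lower of the genes to which it gave an adjusted p. Whether the 2 families differ was not tested.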

How the data were processed

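HTSeq read counts per gene were deposited by the authors for 4 libraries, as raw whole numbers. Reads were processed with bcl2fastq 2.16.0.10, FastQC 0.11.5, STAR 2.5.3a and HTSeq 0.6.1 on GRCm38, per the submitters' processing notes, which also name DESeq2 1.18. Libraries came from a stranded kit after poly(A) selection, per the labels' protocols. The sources used here do not give strand settings, read length or annotation release.

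Symbols, types and exon lengths were taken by identifier from GENCODE vM21 (53360 of 53465 genes matched). The 5 HTSeq summary categories, whose shares include 3.18% to 6.45% of reads outside genes, were left out. Counts were tested in R 4.3.3 with edgeR 4.0.16 (filterByExpr, TMM, quasi-likelihood test, Benjamini-Hochberg adjustment over 18157 genes, threshold 0.05). CPM per kilobase divides TMM-scaled CPM by exon length, ± after a fold change is the SE, and an offset of 1 was added before taking log2 of CPM. Alternatives were DESeq2 1.42.0, limma-voom 3.58.1, other scalings, no filter, a replicate block, trends on GC content and length removed with mgcv 1.9.3, and each library left out. The TPM scale, a crossed block and DESeq2 without each library were added after the data were seen. Copies were found with blastn 2.17.0. The scripts were tested on simulated data. Replicates differed by more than counting error (chi-square per degree of freedom 119 between the knockout-labelled libraries and 50.2 between the controls).

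Members and lists were chosen with earlier results of these data known. Members were named by role, by the 5 largest and 5 smallest fold changes, by level per length and by DESeq2's adjusted p. In the other lists, the 2 genes with the smallest p were named. Head-to-head neighbours, mt-Co1, Yy1, Gabpa, Ppargc1a, Slirp and the single marker genes were picked with their values known. The genome and protein sequences were not used here.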

Additional observations from a re-analysis of the deposited data

How the results depend on the processing

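The members' median log2 fold change of 0.45 stayed above that of all genes under each alternative run, with leave-one-out values between 0.30 and 0.65. It was 0.19 with library totals alone, where the median of all genes was -0.26, 0.15 in TPM without the mitochondrial genome and -0.035 in TPM, where that of all genes was -0.37. The mitochondrial genome took 23.8% and 29.1% of TPM in the knockout-labelled libraries, against 13.0% and 18.9% in the controls. Members called higher numbered 0 in edgeR, 14 in DESeq2 and 2 with no filter. Over all genes the calls were 2 higher and 0 lower in edgeR, 980 and 778 in DESeq2, 313 and 241 with no filter, and 0 higher in limma-voom. Leaving out single libraries gave 0 to 9 higher and 0 to 30 lower. Replicate numbers are not said to pair samples, and same-numbered deviations correlated at -0.14. The replicate block gave 9 higher and 9 lower, and with GC and length trends removed as well it gave 2 higher and 3 lower. The members' median was 0.43 with the block and 0.31 with block and trend removal. Crossing the numbers, run because same-numbered deviations correlated negatively, gave 501 higher and 440 lower of 18157 genes, with 5 members higher. The crossed pairs were thus picked from these same data, so these calls do not count as evidence. Members above 0 numbered 75 with TMM, 57 with library totals and 68 with the GC and length trend removed. Of the 33 named members, the only ones compared singly, library totals turned Mrpl10 to -0.21, Mrpl44 to -0.10, Mrps12 to -0.23, Mrps18a to -0.043, Mrps23 to -0.00010 and Mrps26 to -0.23. Removing that trend turned, of the same 33, Mrpl10 to -0.074, Mrpl23 to 0.11, Mrpl34 to -0.078, Mrpl44 to -0.0069 and Mrps12 to -0.17, and with the block as well they were -0.076, 0.10, -0.079, -0.0072 and -0.17. Leave-one-out ranges were -0.074 to 0.16 for Mrpl10, -0.30 to 0.064 for Mrpl23, -0.12 to 0.16 for Mrps12 and -0.25 to 0.31 for Mrps26. The cause of these changes was not tested. With 2 libraries per group, the SE of a single member's log2 fold change, 0.15 to 0.32, limits what could be detected.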
